A study of Homo sapiens with 14 samples.

Results

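Genes of the replication-dependent histone clusters, and the few other genes that share their symbols, were followed in HepG2 cells that had received miR-124 by transfection, against cells given a negative control. HepG2 is a line grown from a human liver cancer. miR-124 is a small RNA abundant in neurons that lowers messenger RNAs carrying a matching site. Total RNA was taken at 4, 8, 16, 24, 32, 72 and 120 h in each transfection, and 14 arrays were made in all, so that each time of each transfection was measured once and no time has a replicate. The dose of miR-124, the make-up of the control and the number of cultures are not given in the sources used here. Every probe set was taken whose annotated gene symbols include one starting with H1-, H2AC, H2BC, H3C or H4C and a number, which gave 78 of 54613 probe sets that are not controls, and 69 of 21357 genes. Of the 78, 58 listed 1 gene and 20 listed several, and 19 of the 69 genes were carried only by probe sets they share. There were 54 probe sets with the plain suffix _at, 8 with _s_at, 15 with _x_at and 1 with _a_at. In this naming, _s_at marks probes shared among transcripts of a family and _x_at marks probes that can bind unrelated or near-identical sequences, so these values cannot be assigned to 1 gene with certainty. Not every name in the set is a clustered histone gene: 69 probe sets were, 5 belonged to the linker histone genes H1-7, H1-8 and H1-10 that lie outside the clusters, 3 to the pseudogenes H1-9P, H4C10P and H2AC5P, and 1 to the antisense RNA H1-10-AS1. Histone genes were selected on measured values, namely the high ratio of miR-124 over control at 72 and 120 h of members such as H1-2, H2BC21 and H2BC5, so the late values are given as a description without a test. Tests used the 10 arrays of 4 to 32 h.

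Histones package DNA. The core histones H2A, H2B, H3 and H4 form the nucleosome and the linker histone H1 binds the DNA between nucleosomes. Their clustered genes are switched on in S phase, when new DNA needs new nucleosomes, by NPAT, a coactivator that the kinase CDK2 with cyclin E phosphorylates. Their messenger RNAs are the only known ones in animal cells that normally end in a stem-loop in place of a poly(A) tail. SLBP, the stem-loop binding protein, binds that end and takes part in its processing, translation and stability, and outside S phase histone messenger RNA is normally scarce. Some clustered genes can also give poly(A)-tailed transcripts. The labels do not name the primer used to make cDNA, so tailed and stem-loop-ended transcripts cannot be told apart in these values.

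Promoter sequences were available in RefSeq, build GRCh38.p14, for 59 of the 69 genes, with 64 listed starts. The 250 bases before the start are shown for 5 genes, 4 with high late ratios and 1, H2BC12, that was picked after its values were seen because it was under 2-fold higher at both late times. Sequences run 5′ to 3′ on the gene's strand. Capitals mark the octamer ATTTGCAT that OCT1 binds, the box CCAAT bound by NF-Y and the sequence TATAAA of the TATA box, each searched on both strands, so that the reverse complements are in capitals too. In H2BC12 a pair of TATA matches on opposite strands overlap in the run TTTATAAA.
H1-2: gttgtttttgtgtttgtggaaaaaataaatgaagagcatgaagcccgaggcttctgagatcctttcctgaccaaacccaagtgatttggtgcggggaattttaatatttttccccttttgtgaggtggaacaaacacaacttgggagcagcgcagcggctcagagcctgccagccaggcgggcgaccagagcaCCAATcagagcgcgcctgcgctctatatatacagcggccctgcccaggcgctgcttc
H2BC21: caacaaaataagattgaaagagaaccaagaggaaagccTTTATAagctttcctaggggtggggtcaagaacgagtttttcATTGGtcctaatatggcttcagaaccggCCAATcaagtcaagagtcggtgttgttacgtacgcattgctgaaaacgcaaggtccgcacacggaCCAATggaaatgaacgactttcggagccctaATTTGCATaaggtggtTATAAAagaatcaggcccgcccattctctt
H2BC5: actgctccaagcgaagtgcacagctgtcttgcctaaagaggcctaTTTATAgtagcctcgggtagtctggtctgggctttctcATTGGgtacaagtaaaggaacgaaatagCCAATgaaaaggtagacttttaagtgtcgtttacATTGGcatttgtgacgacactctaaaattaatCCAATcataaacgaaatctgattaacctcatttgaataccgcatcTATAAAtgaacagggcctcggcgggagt
H2BC4: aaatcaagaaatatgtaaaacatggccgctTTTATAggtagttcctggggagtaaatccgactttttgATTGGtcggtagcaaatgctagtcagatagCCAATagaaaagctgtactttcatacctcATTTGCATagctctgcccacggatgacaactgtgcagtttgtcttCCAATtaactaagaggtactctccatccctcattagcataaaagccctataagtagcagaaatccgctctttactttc
H2BC12: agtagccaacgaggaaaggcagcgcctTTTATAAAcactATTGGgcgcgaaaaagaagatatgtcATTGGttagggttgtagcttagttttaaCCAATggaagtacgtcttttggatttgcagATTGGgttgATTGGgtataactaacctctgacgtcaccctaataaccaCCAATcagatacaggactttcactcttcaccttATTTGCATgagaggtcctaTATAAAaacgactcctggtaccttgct

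These windows lie at chr6:26056471-26056720 on the minus strand for H1-2, chr1:149886683-149886932 on the minus strand for H2BC21, chr6:26157871-26158120 on the plus strand for H2BC5, chr6:26123927-26124176 on the minus strand for H2BC4 and chr6:27146859-27147108 on the minus strand for H2BC12. H2BC21 and H2BC12 both hold an octamer that begins 46 bases before the start. H1-2 holds 1 CCAAT match, 57 bases before its start, and no octamer or TATAAA. The H2BC4 window overlaps by 245 bases with that of H2AC6, which is read in the opposite direction from plus strand window chr6:26123922-26124171, and their octamer is the same one. Over the 64 histone starts, the octamer was found in 35.9%, CCAAT in 81.2% and TATAAA in 62.5%, against 1.63%, 32.0% and 10.7% of 35116 promoter windows of the same length. By family the octamer was in 77.8% of 18 H2B starts, 61.5% of 13 H2A starts, 10.0% of 10 H3 starts and none of 10 H1 or 13 H4 starts. Some H2A and H2B windows overlap on opposite strands, so 1 octamer can be counted for both starts and these shares are not separate. A probe set of a gene's own is here one that lists 1 gene, whatever its suffix. Among genes with such a probe set, the octamer stood in 4 of 10 starts of the genes at least 2-fold higher at both 72 and 120 h. It stood in 13 of 37 starts of the others. Among the 4, the octamer shared by H2BC4 and H2AC6 is counted for both. A match describes the letters of the window and is not a site in use.

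At 72 and 120 h a subset of the histone probe sets stood far above control, and many of the rest stayed near it. Of 78, 19 were at least 2-fold higher with miR-124 at 72 h, or 24.4%, where 2.07% of all probe sets were. At 120 h, 21 were, or 26.9%, against 1.62% of all probe sets. At both times 18 were, or 23.1%, against 0.945%. In the opposite direction, 1 was at least 2-fold lower at 72 h and 0 at 120 h, where 2.82% and 0.667% of all probe sets were. These shares rest on the values by which the genes were chosen, so nothing is read from their distance to the background. Since RNA was taken from whole cultures, more RNA per cell and more cells that make the RNA cannot be told apart. Of the 78, 29 had log2 ratios within 0.25 of 0 at both late times, where 29185 of all 54613 probe sets did. Of those 29, 19 were among the 44 members whose mean over 4 to 32 h was not above the array-wide median.

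The 18 probe sets at least 2-fold higher at both times held 7 of 20 H2B, 5 of 16 H2A, 2 of 10 H3, 2 of 16 H4, 1 of 14 H1 and 1 of 2 that list both H2A and H3 genes. By suffix they were 10 of 54 plain _at, 5 of 8 _s_at and 3 of 15 _x_at. In 18 of 18, the lower of the 2 late miR-124 values was above each of the 7 control values. The 18 were picked by these same late values, so this count describes them and nothing is read from it. By time from 4 to 120 h, the median log2 ratio of the 18 took the values 0.02, 0.08, 0.11, 0.50, 0.58, 2.43 and 2.61. The ratio was positive for 13 at 16 h, for 17 at 24 h and for 18 at 32 h, and for 12 it was larger at 120 h than at 72 h. The median log2 ratio of all 54613 probe sets was 0.009 at 16 h, 0.025 at 24 h and 0.016 at 32 h. Several of the 18 list the same genes, so these are not counts of independent members. By medians, most of the difference came from the miR-124 arm. The median log2 change from 4 h was 2.57 (72 h) and 2.74 (120 h) with miR-124, against 0.18 and 0.19 in control. In some the control also fell. In 210387_at, which lists 2 H2B genes, control changed by −1.26 and −1.44, beside 1.73 and 1.71 with miR-124. In 214472_at, which lists H3 genes and H2AC7, control changed by −0.69 and −0.76, beside 0.98 and 1.31. At 72 h, 13 of the 18 were above their 4 h level in control. The other 60 had median log2 ratios of 0.07 (72 h) and 0.03 (120 h). Just inside the 2-fold limit was H3C6 probe set 236278_at, with log2 ratios of 1.18 and 1.07, and just outside it were 208490_x_at, which lists 5 H2B genes, with 0.99 and 1.195, and H2BC9, with 0.90 and 1.31.

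**Figure D1:**
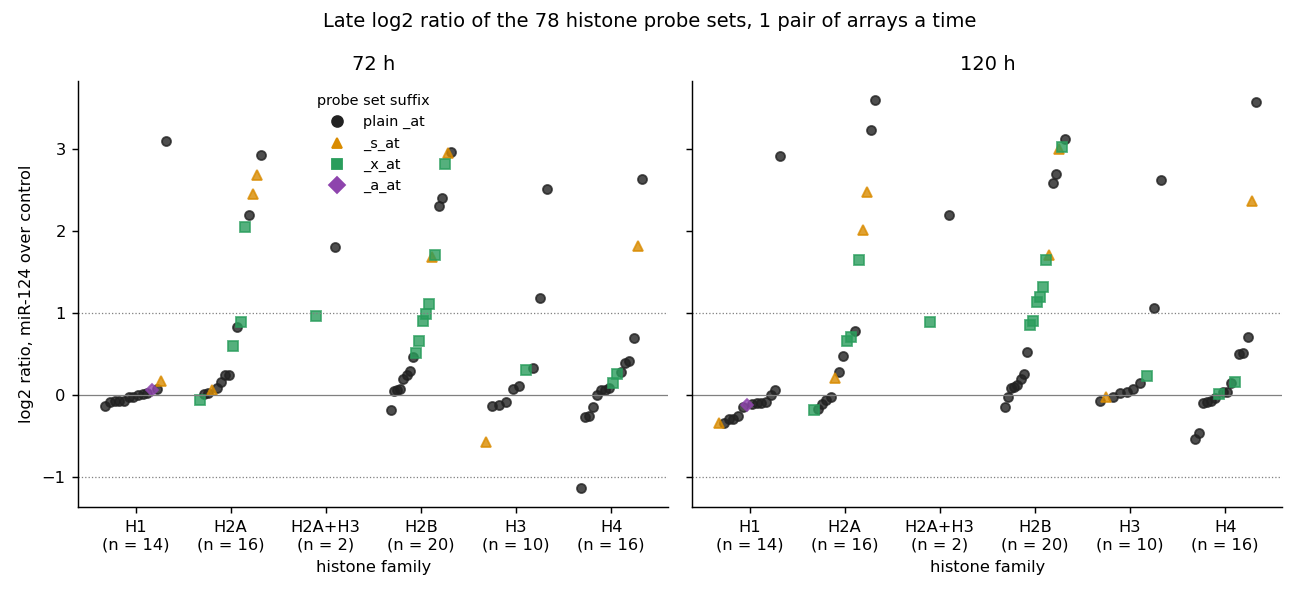
Log2 ratio of miR-124 over control (vertical axis) at 72 h (left) and 120 h (right) for each of the 78 histone probe sets, grouped by histone family and marked by probe set suffix, with dotted lines at 2-fold. Many probe sets lie near 0, while a few of H2A, H2B, H3 and H4 and 1 of H1 lie above 1, up to 3.59.

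Among linker histones, H1-2, a major H1 of dividing cells, was the member that stood out. Probe set 209398_at of H1-2 had log2 levels of 7.08, 7.13, 7.14, 7.71, 8.22, 9.94 and 9.72 in miR-124 cells at 4, 8, 16, 24, 32, 72 and 120 h, against 7.18, 7.26, 7.12, 7.13, 7.34, 6.85 and 6.81 in control cells. The arms overlapped up to 16 h and separated from 24 h on, and the late levels with miR-124 were 8.53-fold and 7.54-fold those of control. Neither H1-1, H1-3, H1-4, H1-5 nor H1-6, the other clustered H1 genes measured, had a log2 ratio above 0.07 at either late time, and their lowest was −0.29, for H1-3 at 120 h. The probe sets of H1-1, H1-3, H1-4 and H1-5 had low means over 4 to 32 h, 5.26, 5.63, 5.15 and 4.05. These lay below the array-wide median of 6.18, which limits what their ratios can show. Only H1-6 among them was above it. H1-10, a linker histone made outside S phase and from a gene outside the clusters, had ratios of 0.18 and −0.34 at 72 and 120 h. It had also shown −0.80 at 4 h, so its late values lay inside the range of its earlier ones. The 3 probe sets of H1-7 ranged from −0.13 to −0.02 at 72 h and from −0.29 to 0.06 at 120 h, and H1-8, which is made in oocytes, had −0.08 and −0.34.

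H2B held the most members with high late ratios. H2BC21, a replication-dependent gene in the small cluster on chromosome 1 that is also known for poly(A)-tailed transcripts, was the only one of the 8 genes with an own high probe set that did not lie on chromosome 6. H2BC21 (202708_s_at) had log2 levels of 6.52, 6.58, 6.996, 7.66, 7.95, 10.26 and 10.39 in miR-124 cells at the same times, against 6.60, 6.45, 6.67, 6.84, 6.76, 7.31 and 7.39 in control cells. Its control level also drifted upward late, yet the miR-124 values at 72 and 120 h were 7.73-fold and 8.00-fold those of control. H2BC5 (209911_x_at) had log2 levels of 7.66, 7.65, 8.07, 8.32, 8.47, 10.94 and 11.03 in miR-124 cells at the same times, against 7.77, 7.67, 7.82, 7.75, 7.83, 8.12 and 8.01 in control cells. Its other probe set, 222067_x_at, gave log2 ratios of 1.71 and 1.65 at 72 and 120 h, where 209911_x_at gave 2.82 and 3.02, so the direction was shared and the size was not. H2BC4 (236193_at) had log2 levels of 5.90, 5.87, 5.96, 6.48, 7.13, 8.81 and 8.73 in miR-124 cells at the same times, against 5.95, 5.86, 6.20, 6.17, 6.59, 6.50 and 6.14 in control cells. H2BC4 was below control at 16 h and above it from 24 h on. This second H2BC5 probe set had log2 levels of 8.10, 7.80, 7.92, 8.21, 8.35, 9.77 and 9.65 in miR-124 cells at the same times, against 7.82, 7.73, 7.88, 7.86, 7.78, 8.06 and 8.00 in control cells. H2BC9 and H2BC6, both read by _x_at probe sets, were less high, with log2 ratios of 0.90 and 1.31 for H2BC9 and 1.11 and 0.86 for H2BC6. H2BC9 (208546_x_at) had log2 levels of 6.79, 6.55, 6.62, 6.82, 6.88, 7.63 and 8.12 in miR-124 cells at the same times, against 6.85, 6.64, 6.61, 6.62, 6.74, 6.73 and 6.80 in control cells. H2BC6 (208527_x_at) had log2 levels of 6.90, 6.75, 6.88, 7.14, 7.07, 8.01 and 8.01 in miR-124 cells at the same times, against 7.04, 6.63, 6.78, 6.82, 6.85, 6.90 and 7.15 in control cells. In both, the 2 late miR-124 values were the highest of the 14. H2BC12, whose promoter holds the same 3 motifs as that of H2BC21, had −0.19 and 0.52, with both arms at higher levels late than at 4 h.

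In the H2A family, H2AC6 and H2AC8 were the 2 genes with high probe sets of their own, though that of H2AC6 has the suffix _s_at. H2AC6 (215071_s_at) had log2 levels of 7.69, 7.98, 8.32, 9.17, 9.56, 10.85 and 10.91 in miR-124 cells at the same times, against 7.68, 7.80, 8.15, 8.15, 8.38, 8.16 and 8.43 in control cells. Its separation was already 1.02 on the log2 scale at 24 h. H2AC8 (214469_at) had log2 levels of 5.12, 5.05, 5.04, 5.20, 5.28, 7.91 and 8.72 in miR-124 cells at the same times, against 5.04, 4.95, 4.92, 5.16, 5.27, 4.99 and 5.13 in control cells. H2AC8 thus stayed within 0.12 of control through 32 h and was 7.60-fold and 12.07-fold higher at 72 and 120 h, the latest to separate of the members given here by time. The 3 probe sets of the near-identical pair H2AC18 and H2AC19 differed: 214290_s_at had log2 ratios of 2.45 and 2.01 at 72 and 120 h, 218280_x_at had 2.05 and 1.65, and 218279_s_at had 0.06 and 0.20. Their means over 4 to 32 h were 8.84, 7.68 and 5.34. The mean of 218279_s_at lay below the array-wide median of 6.18, which limits what its ratios can show.

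H2A and H2B genes often lie head to head and share a promoter, and 9 pairs with overlapping windows on opposite strands were found among the histone genes, 1 of them formed by H3C4 and H2BC7. In 4 of them both genes had a probe set of their own. In H2BC4 and H2AC6 both were high, with log2 ratios of 2.31 and 2.59 for H2BC4 and 2.69 and 2.48 for H2AC6 at 72 and 120 h. In the other 3 pairs neither was at least 2-fold higher at either time. Of their genes only H2AC14, read by an _x_at probe set, had a mean over 4 to 32 h above the array-wide median of 6.18. The probe sets of the others had means from 4.36 for H2BC17 to 6.01 for H2AC17, which limits what their ratios can show. H2AC14 had 0.60 and 0.65 beside 0.07 and −0.02 for H2BC14, H2AC15 had 0.83 and 0.48 beside 0.24 and 0.20 for H2BC15, with 0.08 and 0.28 in a second H2AC15 probe set, 214644_at, and H2AC17 had 0.25 and 0.78 beside 0.47 and 0.25 for H2BC17.

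H3 and H4 behaved unevenly. Probe set 206110_at lists 10 H3 genes that code for near-identical proteins, and any of them may supply its signal. This shared H3 probe set had log2 levels of 6.77, 6.59, 6.94, 7.38, 7.64, 9.41 and 9.75 in miR-124 cells at the same times, against 6.64, 6.51, 6.66, 6.64, 6.65, 6.90 and 7.12 in control cells. With miR-124 it was 5.69-fold and 6.18-fold control at 72 and 120 h. Another probe set that lists the same 10 genes, 214646_at, had log2 ratios of 0.08 and −0.08. Of the 2 probe sets of H3C6, 236278_at was about 2-fold higher late, as given above, and 214616_at had 0.34 and 0.14. H3C6 by 236278_at had log2 levels of 5.09, 5.23, 5.39, 5.61, 5.71, 6.44 and 6.63 in miR-124 cells at the same times, against 5.19, 5.14, 5.28, 5.11, 5.27, 5.26 and 5.57 in control cells. Its highest control value, at 120 h, lay below each miR-124 value from 24 h on. H4C8 (232035_at) had log2 levels of 5.60, 5.47, 5.50, 5.89, 6.38, 8.45 and 9.09 in miR-124 cells at the same times, against 5.37, 5.76, 5.71, 5.66, 5.94, 5.82 and 5.52 in control cells. Its second probe set, 208180_s_at, had log2 ratios of 1.82 and 2.36 where 232035_at had 2.63 and 3.58. H4C8 by 208180_s_at had log2 levels of 5.07, 5.13, 5.08, 5.23, 5.48, 6.94 and 7.29 in miR-124 cells at the same times, against 5.04, 5.18, 5.24, 5.18, 5.31, 5.12 and 4.93 in control cells. Through 24 h the log2 ratios of both H4C8 probe sets lay between −0.29 and 0.24. The H4 probe set 205967_at, which lists 14 H4 genes and was singled out after its values were seen, was the 1 member at least 2-fold lower. It had log2 levels of 12.34, 12.43, 12.37, 12.32, 12.10, 11.19 and 11.96 in miR-124 cells at the same times, against 12.08, 12.40, 12.47, 12.41, 12.42, 12.32 and 12.50 in control cells. Its miR-124 level at 72 h was the lowest of the 14 arrays and its late log2 ratios were −1.13 and −0.54. By the mean of 72 and 120 h, the lowest late ratios among probe sets with 1 gene were those of H3C2, with −0.57 and −0.03, and of H1-8, H4C10P and H1-3, which had −0.34, −0.46 and −0.29 at 120 h. H3C2 (208576_s_at) had log2 levels of 5.17, 5.26, 5.39, 5.14, 5.12, 4.70 and 5.13 in miR-124 cells at the same times, against 5.29, 5.16, 5.08, 5.09, 5.07, 5.27 and 5.16 in control cells. H1-8 (1553064_at) had log2 levels of 5.73, 5.81, 5.65, 5.82, 5.71, 5.79 and 5.80 in miR-124 cells at the same times, against 5.72, 5.62, 5.86, 5.52, 5.88, 5.87 and 6.13 in control cells. Both probe sets lay below the level for testing, and in H1-8 all miR-124 values lay inside the range of control. H4C10P (234392_at) had log2 levels of 4.80, 4.71, 4.61, 4.40, 4.56, 4.59 and 4.22 in miR-124 cells at the same times, against 4.51, 4.55, 4.50, 4.44, 4.55, 4.52 and 4.68 in control cells. H1-3 (214537_at) had log2 levels of 5.63, 5.78, 5.58, 5.73, 5.56, 5.59 and 5.44 in miR-124 cells at the same times, against 5.62, 5.75, 5.54, 5.62, 5.51, 5.66 and 5.73 in control cells. In H4C10P and H1-3 the miR-124 level at 120 h was the lowest of the 14 arrays, and in H3C2 that at 72 h was.

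**Figure D2:**
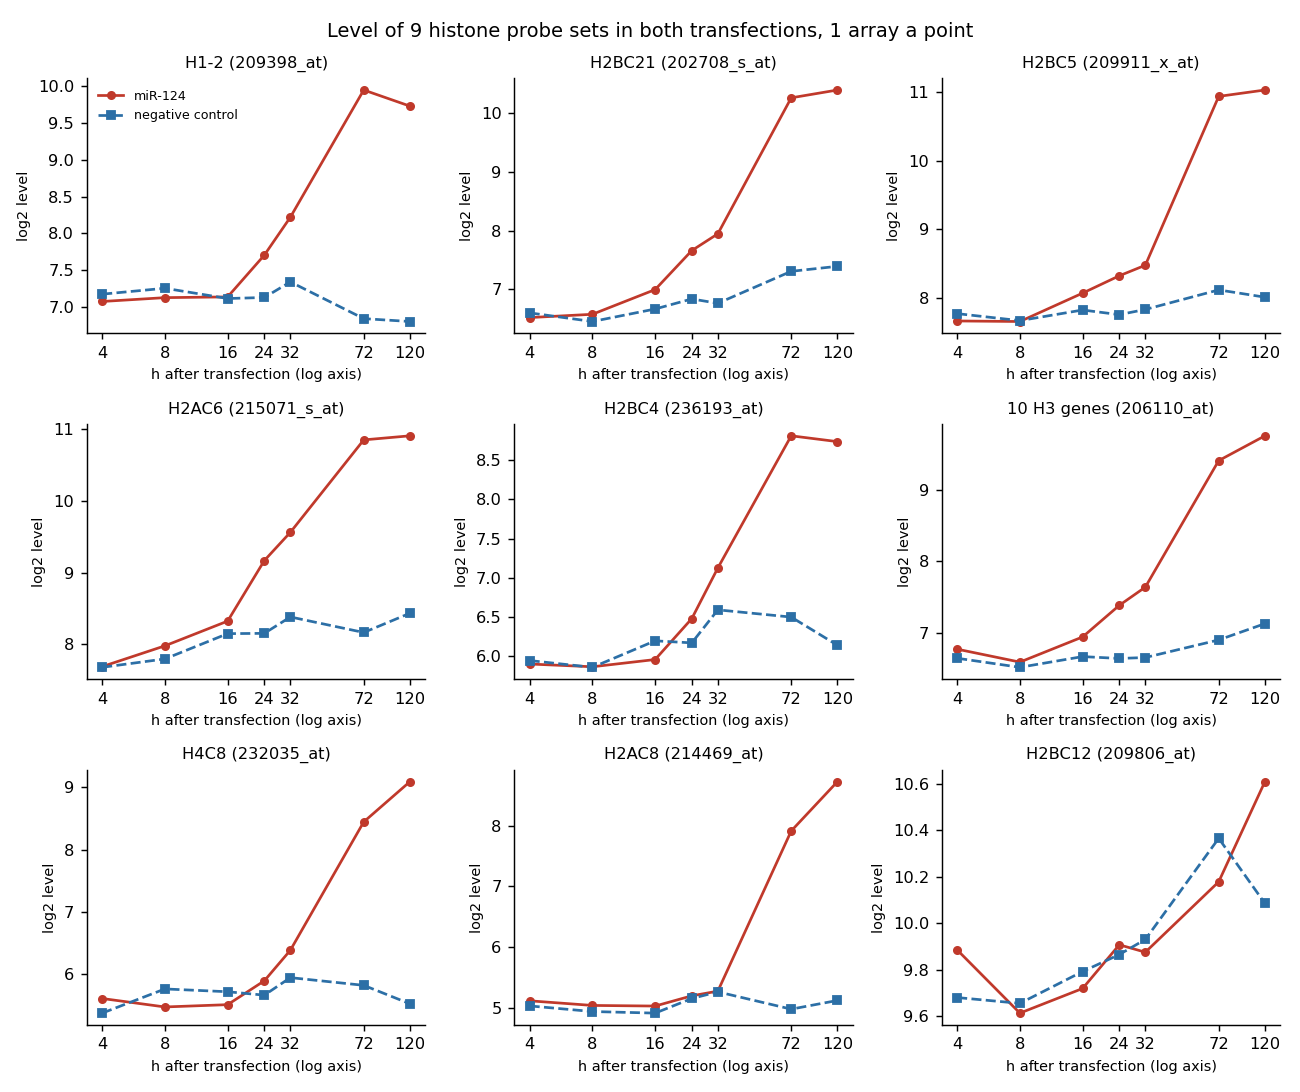
Log2 level (vertical axis) against hours after transfection (log axis) for 9 histone probe sets, with miR-124 as red circles and the negative control as blue squares, 1 array a point. In 8 of the 9 the red line lies far above the blue at 72 and 120 h, and in H2BC12 (lower right) it does not, with late log2 ratios of −0.19 and 0.52.

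The median late ratio differed by probe set suffix, a description of the values by which the genes were chosen. The suffix groups also differed in make-up. Most H1 and H4 probe sets, the pseudogenes and the antisense RNA were plain _at. Above the level for testing were 16 of 54 plain _at and 17 of 23 _s_at or _x_at probe sets. The part of family and level in the suffix medians was not tested. Over every member, the median log2 ratio at 72 h was 0.08 for the 54 plain _at and 0.90 for the 23 _s_at and _x_at probe sets, and at 120 h it was 0.04 and 0.91. Of the 34 members whose mean over the 4 to 32 h arrays exceeded the array-wide median of 6.18, 16 were plain _at, with medians of 0.05 and 0.03 at 72 and 120 h, and 17 were _s_at or _x_at, with 0.90 and 1.14. The median over all 27306 probe sets above that level was 0.01 at 72 h and −0.02 at 120 h. Of these 34, 10 were at least 2-fold higher at 72 h and 12 at 120 h, against 3.18% and 2.22% of all above the level. H2BC4, which exceeded the level only in the miR-124 arm, is counted at both times. The 44 members below the level included 9 of the 18 with high ratios at both times, H2AC8 and both H4C8 probe sets among them, and the filter left these out of the tests. H1-2, H2BC4, H2AC8 and H4C8 have plain _at probe sets that list 1 gene, so high late ratios were not limited to shared probe sets. A plain suffix does not mean 1 gene, since some plain _at probe sets list several. By genes listed, 8 of 20 probe sets with several genes were at least 2-fold higher at both late times, and 10 of 58 with 1 gene. By suffix, 3 of 15 _x_at, 10 of 54 plain _at and 5 of 8 _s_at were. The _x_at median alone was 0.90 at 72 h and 0.89 at 120 h.

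Part of the difference was seen before the times used to choose the genes. In the mean of 16, 24 and 32 h, called the middle effect, H2AC6 was 1.73-fold higher with miR-124 (log2 0.79 ± 0.17, standard error, n = 3 pairs, limma adjusted p = 0.0247), H2BC21 1.72-fold (log2 0.78 ± 0.14, adjusted p = 0.0129), the shared H3 probe set 206110_at 1.59-fold (log2 0.67 ± 0.12, adjusted p = 0.0127) and H2BC5 by 209911_x_at 1.40-fold (log2 0.49 ± 0.09, adjusted p = 0.0112). These 4 of 34 tested members rose, or 11.8%, and 0 fell, where limma called 6.07% of 27306 probe sets higher and 7.16% lower. At an unadjusted p under 0.05 there were 13 members, or 38.2%, and 26.3% of all probe sets. H1-2 had a log2 difference of 0.49 ± 0.14 and an adjusted p of 0.0650, which missed the threshold of 0.05. It passed without the arrays of 16 h (log2 0.72, adjusted p = 0.00218) and with 1 probe set a gene (adjusted p = 0.0411), and its log2 difference was 0.298 without those of 32 h. H2BC4 was above the level for testing only in the miR-124 arm, with a mean of 6.27 over 4 to 32 h, against 6.155 in control. Nothing is therefore read from its own test. It remains in the counts and medians over the 34 members and in the figure of the middle effect, where its value was above 0. The other 33 tested members were above the level in both arms. The direction was above 0 in 29 of 34 members and in 57.2% of all probe sets, with medians of 0.17 and 0.02. Without the arrays of 24 h none of the 4 passed (limma adjusted p from 0.108 to 0.189), with log2 differences of 0.45 for H2BC5 to 0.76 for H2BC21. Without those of 32 h none did either (0.0669 to 0.155), with 0.41 for H2BC5 to 0.60 for H2AC6, and without those of 16 h 11 members passed. Over all probe sets, the number called was 3613 with every time, 835 without 24 h, 1220 without 32 h and 4328 without 16 h, of which 1973 were higher.

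**Figure D3:**
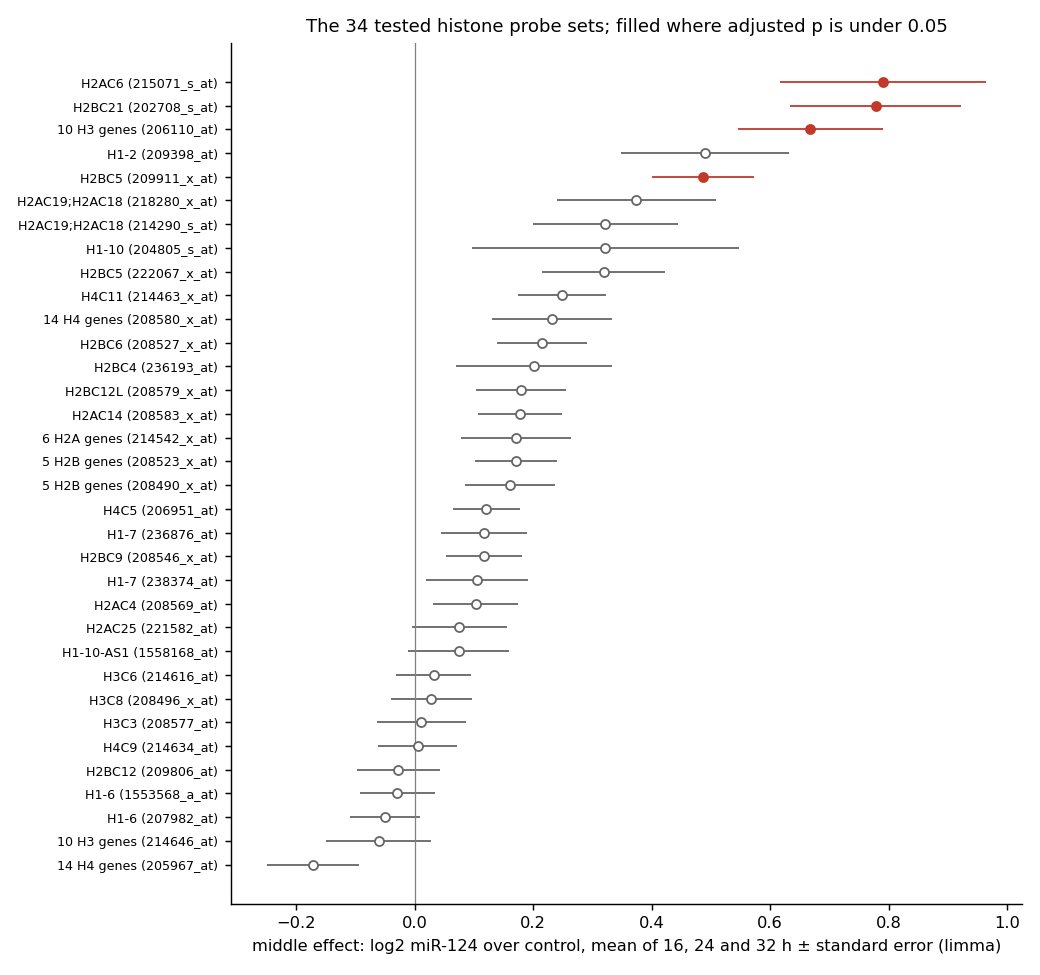
Middle effect (horizontal axis: log2 of miR-124 over control, mean of 16, 24 and 32 h, with its standard error from limma) for the 34 tested histone probe sets, sorted, with filled red points where the adjusted p was under 0.05. The 4 filled points lie between 0.49 and 0.79, and 29 of the 34 points lie above 0. H2BC4, above the level for testing only with miR-124, is among the 29.

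Before that, at 4 and 8 h, 0 of the 34 members passed in either direction, where limma called 0.0% of all probe sets higher and 0.0% lower. At an unadjusted p under 0.05 there were 0 members and 4.28% of all probe sets. The member median of the early effect was 0.01 and that of all probe sets −0.01. The difference of the middle from the early effect was called in 0 members, where 0.0732% of all probe sets were called higher and 0.154% lower. At an unadjusted p under 0.05 there were 6 members, or 17.6%, and 15.2% of all probe sets. It was therefore not shown by this test that the middle effect exceeds the early one, with the largest difference at 0.76 ± 0.23 for H2BC21 (limma adjusted p = 0.178) and the smallest adjusted p, 0.121, for H2BC5 (0.55 ± 0.14).

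Within each transfection, the slope of the level over 4 to 32 h was fitted on 5 arrays. With miR-124, H2AC6 rose by 0.62 ± 0.09 on the log2 scale for each doubling of time (limma adjusted p = 0.00633), H2BC21 by 0.49 ± 0.08 (adjusted p = 0.0100), H2BC5 by 0.29 ± 0.05 (adjusted p = 0.0118) and the shared H3 probe set by 0.31 ± 0.08 (adjusted p = 0.0407). These were 4 of 34 members, with 0 that fell, where 5.23% of all probe sets rose and 5.9% fell. In control, 0 members were called in either direction, where 0.0183% rose and 0.0183% fell. At an unadjusted p under 0.05 there were 6 members in control, or 17.6%, and 14.4% of all probe sets, and with miR-124 7 members, or 20.6%, and 26.2% of all. H2AC6 had the steepest upward control slope among members, 0.23 ± 0.03 (limma adjusted p = 0.0781), and H1-10 had the steepest downward one, −0.30 ± 0.06 (adjusted p = 0.130). The slopes of the 2 arms were not tested against each other. Without the arrays of 16 h 8 members had a called slope with miR-124, without 24 h 2, and without 32 h 1, where 3190, 956 and 1094 of all 27306 probe sets had one.

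SLBP, whose protein binds the stem-loop of histone messenger RNA, moved in the opposite direction. SLBP (206052_s_at) had log2 levels of 10.86, 10.20, 9.88, 8.95, 8.72, 8.14 and 9.80 in miR-124 cells at 4, 8, 16, 24, 32, 72 and 120 h, against 11.03, 10.88, 10.81, 10.70, 10.74, 10.62 and 10.22 in control cells. It was below control at each of the 7 times, by 0.68 on the log2 scale at 8 h, 2.48 at 72 h and 0.42 at 120 h. In the middle window it fell 2.96-fold (log2 −1.57 ± 0.20, n = 3 pairs, limma adjusted p = 0.00296), and it passed in all 12 alternatives, with log2 values from −1.89 to −1.34. At 120 h, when the SLBP ratio was nearest to 0 since 4 h, the 18 high histone probe sets had a median ratio of 2.61. Whether the SLBP level has a part in the histone levels was not tested.

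**Figure D4:**
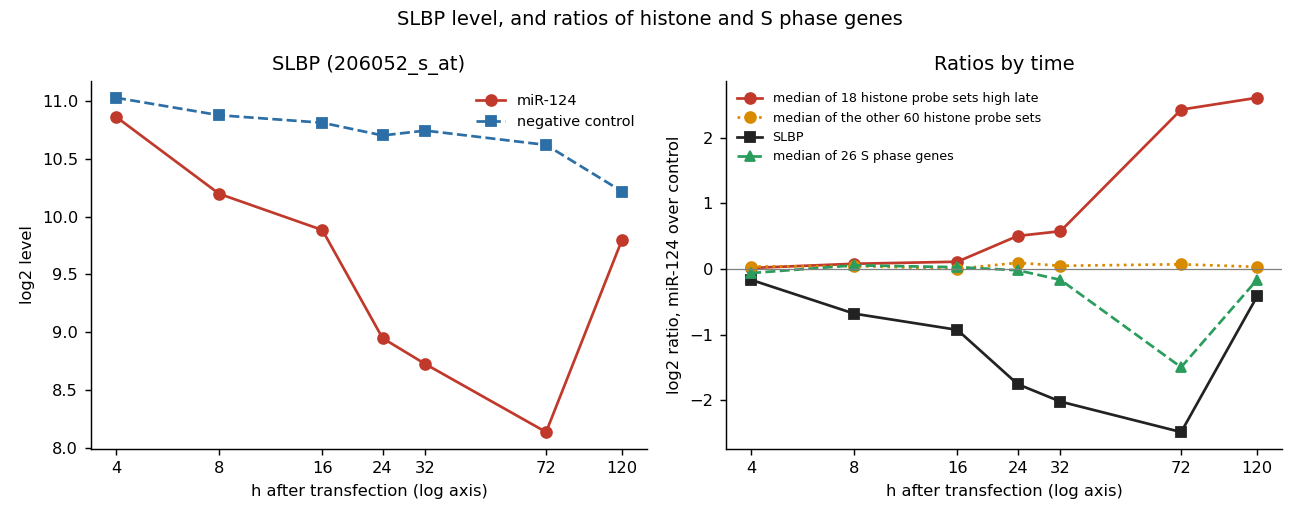
Left, log2 level of SLBP (vertical axis) in miR-124 (red circles) and control (blue squares) cells against hours after transfection (log axis), 1 array a point. Right, log2 ratio of miR-124 over control at the same times for the median of the 18 histone probe sets with high late ratios, the median of the other 60, SLBP, and the median of 26 S phase genes, where the first reaches 2.61 at 120 h and the last is lowest at −1.496 at 72 h.

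Of the 16 genes tested for transcription and 3′ end processing of histone messenger RNA, 1 rose and 2 fell in the middle window, with a list median of −0.02. Over all 27306 tested probe sets, limma called 6.07% higher and 7.16% lower, so small counts such as these are not read as results about a list. Besides SLBP, SRRT, which links the cap-binding complex to 3′ end formation, fell (log2 −0.45 ± 0.08, limma adjusted p = 0.00970). LSM11, a protein of the U7 particle that directs histone cleavage, rose (0.27 ± 0.06, adjusted p = 0.0269). NPAT had −0.17 ± 0.08 and an adjusted p of 0.223. Of the 16 genes of histone messenger RNA decay, ERI1, the exonuclease that trims the stem-loop end, fell (−0.66 ± 0.10, adjusted p = 0.00592), and the exonuclease XRN1 rose (0.44 ± 0.07, adjusted p = 0.00629). Of the 13 general cleavage and polyadenylation genes 0 rose and 3 fell: NUDT21, a subunit of cleavage factor I, by 0.47, the poly(A) polymerase PAPOLG by 0.30 and CSTF3 by 0.27, all on the log2 scale. Genes of these lists with the next largest differences did not pass: DCP1A and DCP2 of the decapping complex had −0.27 ± 0.09 (limma adjusted p = 0.104) and 0.25 ± 0.07 (0.0602), and the cleavage factor PCF11 had 0.14 ± 0.07 (0.261). Of the 20 genes of the 8 lists that were called, 16 lost the call without the arrays of 24 h and 13 without those of 32 h. SLBP, ASF1B and CDK2 kept it in every alternative run.

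Most genes of DNA replication were lower with miR-124 at 72 h. Of the 26 tested genes of S phase entry and replication, 1 rose and 4 fell in the middle window. Over all tested probe sets, 6.07% were called higher and 7.16% lower. CDK2, the kinase that acts on NPAT, fell (log2 −1.59 ± 0.13, limma adjusted p = 0.000890), GINS2 of the replicative helicase by 0.64, the origin licensing factor CDC6 by 0.56 and UHRF1, which maintains DNA methylation, by 0.40, and the thymidine kinase TK1 rose by 0.23 on the log2 scale, a call lost in 10 of 12 alternatives. At 72 h, 21 of the 26 were at least 2-fold lower and 0 were 2-fold higher, with a median log2 ratio of −1.496. Of all tested probe sets, 5.45% were at least 2-fold lower then and 3.18% higher. At 120 h the median of the 26 was −0.16 with 0 at least 2-fold lower, where 1.17% of all tested probe sets were. At that time the 18 histone probe sets had their highest median.

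Of the 19 histone chaperone and chromatin assembly genes, 1 rose and 2 fell in the middle window, where 6.07% of all tested probe sets rose and 7.16% fell. ASF1B, a chaperone of new H3 and H4 in dividing cells, fell (log2 −0.79 ± 0.08, limma adjusted p = 0.00153), the importin IPO4, which carries new histones to the nucleus, fell (−0.69 ± 0.08, adjusted p = 0.00227), and the chromatin remodeller ATRX rose (0.41 ± 0.06, adjusted p = 0.00470). Of the 9 replacement and other histones tested, 0 were called, and H2AX, which has both a stem-loop and a poly(A) form, had a log2 ratio of −1.66 at 72 h and 0.145 at 120 h. CENPA, the H3 of centromeres, had −1.29 and −0.78, and H2AZ1, a replacement H2A, had −1.03 and −0.205. The largest middle differences among these were 0.32 ± 0.23 for H1-10 (limma adjusted p = 0.439), 0.26 ± 0.07 for H2AZ2 (0.0618), −0.22 ± 0.16 for H3-3A (0.472, with a log2 difference of 0.061 without the arrays of 24 h) and 0.21 ± 0.07 for H2AJ (0.118). Of 8 cell cycle inhibitors and RB family genes, CDKN1B, an inhibitor of CDK2, rose by 0.25 and 0 fell, with −0.30 ± 0.10 for RBL1 (limma adjusted p = 0.105), 0.29 ± 0.09 for CDKN2D (0.0922) and −0.20 ± 0.11 for RB1 (0.284). Without the arrays of 16 h RBL1, CDKN2D, H2AJ and, of the decay list, DCP1A passed, with limma adjusted p of 0.0280, 0.0200, 0.0479 and 0.0154. Of 10 factors known to bind histone promoters, NFYC, a subunit of the CCAAT-binding factor, rose by 0.44, and E2F3 and SP1 fell by 0.56 and 0.52 on the log2 scale, while NFYA had −0.22 ± 0.08 (limma adjusted p = 0.103) and, among the chaperones, UBN1 had 0.17 ± 0.09 (0.316).

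The arms also differed in measures that are not histone genes. The difference between the 3′ and 5′ probe sets of ACTB, which reads RNA quality, was larger in the miR-124 array of 7 of 7 pairs, by a mean of 0.21 on the log2 scale at 72 and 120 h, and for GAPDH it was higher in 6 of 7, by 0.16. The miR-124 array of 4 h stood apart in 18S ribosomal RNA, 11.05 against 8.70 in control, and in poly-A spikes, 8.06 against 6.42. The 18S level was also higher with miR-124 at 72 h, 7.84 against 7.33, and at 120 h, 8.07 against 7.58, and it was lower at 8 h, 8.28 against 9.20. All 8 hepatocyte-type markers measured were above the median level of the array, at 10.21 to 13.95 with miR-124 and 10.27 to 14.04 in control. Of these, FGB rose in the middle window (0.26 ± 0.06, limma adjusted p = 0.0308), a call lost without the arrays of 16, 24 or 32 h, and had late log2 ratios of −0.58 and −0.34. At 72 h 7 of the 8 were below control, with a median log2 ratio of −0.215, and at 120 h 7 were, with −0.134. Of 5 blood cell markers 3 were above it, and the log2 of their summed level was 9.34 to 10.19 with miR-124 and 9.24 to 9.43 in control. Of these, CD3D rose in the middle window (0.58 ± 0.11, limma adjusted p = 0.0119) and had log2 ratios of 2.05 at 72 h and 0.83 at 120 h, while PTPRC, CD3E, CD14 and HBB lay between −0.14 and 0.25. Of 7 fibroblast and endothelial markers 5 were above it, with summed levels of 9.94 to 10.16 and 9.83 to 9.98, and PECAM1 rose (0.33 ± 0.07, limma adjusted p = 0.0262), with log2 ratios of 0.64 and 0.28 at 72 and 120 h. Both calls were lost without the arrays of 24 h, with adjusted p of 0.115 for CD3D and 0.214 for PECAM1, and without those of 32 h, with 0.0922 and 0.128. RMA values have no 0, so absence of a marker cannot be read from them. The part of these measures in the histone values was not tested.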

How the data were processed

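The authors deposited 1 table of log2 expression values per probe set for 14 arrays, which the submitters' processing notes credit to RMA (version not given in the sources used here). Values ran from 2.93 to 14.37, which fits a log2 scale. RMA brings all arrays to 1 distribution, which hides any change in total messenger RNA per cell. Arrays have no depth, and their number limits the precision. The labels name no separate cultures. P-values therefore reflect only how the effect varied between times, which may be technical.

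The members, lists and tests were chosen with earlier results of these data known. Probe sets were named from the platform annotation; all 69 member genes matched the reference gene table under the same symbol. Probe sets with a mean above the median of all (6.18) over the 10 arrays of 4 to 32 h were tested, 27306 in number. limma 3.58.1 in R 4.3.3 (lmFit, eBayes, two-sided) fitted time point as a block and the transfection effect in the early (4 and 8 h) and middle (16, 24 and 32 h) windows, and, per arm, a slope on log2 time, each with 3 residual degrees of freedom. P-values were adjusted by Benjamini-Hochberg over all tested probe sets, with a threshold of 0.05, and ± is the standard error. Deviations from the group means correlated between arrays of a time at 0.21 to 0.46, above 0.1 in 7 of 7 pairs, and the pairing by time comes from the labels. The scripts were checked on simulated data. Members named were the 12 highest and 4 lowest late ratios among probe sets with 1 gene, those called, their genes' other probe sets and the H1 genes outside the clusters; in each list, the genes called and the 4 with the largest middle difference, with SLBP and NPAT always. Lists used 1 probe set a gene, the one with the highest mean. Plots used matplotlib 3.10.9 (Python 3.11.15).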

Additional observations from a re-analysis of the deposited data

Results flagged for a closer look

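Some members had ratios of one sign at each time of a window and of the other sign at each time of another, which flagged them, and this contrast of windows was not tested for the late times. For H1-2 the mean log2 ratio was 0.60 higher in the middle than in the early window and 3.12 higher in the late (72 and 120 h) than in the early one. For H2BC5 (209911_x_at) these differences were 0.55 and 2.98, and for H2BC9 0.20 and 1.19. The shared H4 probe set 205967_at moved the other way, by −0.32 from early to middle and −0.98 from early to late. Small differences of the same kind were −0.44 for H3C2 (late less middle), −0.31 for H1-8 (late less early), and −0.25 and −0.20 for H1-3 (late less middle and late less early). For the early and middle windows the difference was part of the fits, and no member passed: limma gave an adjusted p of 0.265 for H1-2, 0.121 for H2BC5 and 0.285 for 205967_at.

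Single arrays that lay far from the other 6 of their arm flagged 3 probe sets. In the 205967_at probe set the miR-124 array of 72 h had a log2 level of 11.19, with the nearest at 11.96, and the control array of 4 h had 12.08, with the nearest at 12.32. The miR-124 array of 72 h had 4.70 for H3C2, with the nearest at 5.12, and the control array of 120 h had 5.57 for H3C6 (236278_at), with the nearest at 5.28. The 7 arrays of an arm are different times and not replicates, 36 such series were examined, and chance flags about 1 in 20.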

How the results depend on the processing

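Leaving out 1 time in turn gave 0 to 11 members called in the middle window where the main analysis gave 4, 0 to 5 for the difference of the windows where it gave 0, 1 to 8 for the miR-124 slope where it gave 4, and 0 throughout for the early effect and the control slope. The counts for the difference of the windows are given without their share over all probe sets, and nothing is read from them. Without the filter 9 of 78 members were called in the middle window, a count without its share over all probe sets, from which nothing is read. With the pairing by time dropped (no replicate block) 3 were, since H2AC6 had an adjusted p of 0.0747, and the early effect and the difference stayed at 0. No share over all probe sets stands beside the count without the pairing either, and nothing is read from it. The 1.5-fold minimum left 1 member with a called miR-124 slope, again a count without its share, from which nothing is read. Slopes over 7 arrays of 4 to 120 h gave 17 members with miR-124 and 4 in control, where 5125 and 1839 of all probe sets had one. These slopes use the late values that chose the genes, so nothing is read from them. Counting every member in place of those above the filter gave 19 and 21 at least 2-fold higher at 72 and 120 h, and medians of 0.076 for plain _at at 72 h and 0.905 for _s_at and _x_at at 120 h. The plain _at median was 0.081 at 72 h without the H1 genes outside the clusters and 0.064 at 120 h with arrays centred. Of the values recomputed, only the middle difference of H3-3A changed sign, with 0.061 without 24 h in a range of −0.362 to 0.061 over the times left out. Over all probe sets the middle count of 3613 was 1093 with the 1.5-fold minimum, 1643 with 14 arrays and a late window, and 2187 with 1 probe set a gene. The limits are 1 array a time, no separate measure of replicate spread, and probe sets that cannot tell near-identical histone genes apart. The 4 middle calls of members were lost without 24 h and without 32 h, in fits with fewer arrays.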
